A study of Mus musculus with 77 samples.

Results

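The enhancers described here are regions of the mouse genome classed by the study's authors as bound by PU.1 but not by CEBPA and as belonging to the preGM and GMP stages of myeloid differentiation. They number 3871 of 44002 enhancers in the deposited table (8.80%) and are paired there with 2786 of 10096 genes. They were chosen from 2 columns of that table, the class of bound factors (PU.1 alone) and the class of stages, which read "preGM,GMP" for 2577 and "GMP" for 1294. Both classes were made from measured binding and chromatin signal of the same cells, so the level of PU.1 at these enhancers and their difference from enhancers without PU.1 are a property of the choice and not a result.

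The study profiled enhancer marks and transcription factors by ChIP-seq along the granulocytic-monocytic path of mouse bone marrow and after loss of CEBPA. The columns used here hold 15 groups of 2 listed libraries each. All cells were sorted from freshly harvested bone marrow. LSK cells (Lin-, Sca-1+, ckit), the multipotent progenitors, preGM cells (Lin-, Sca-1-, ckit+, CD150-, CD105-), GMP cells (Lin-, Sca-1-, ckit+, CD150-, FcgRII/III+) and granulocytes (Mac1+Gr-1+) were of wildtype genotype, and a further group of preGM cells was of genotype CEBPA KO. The age and strain of the mice and the way the gene was deleted are not stated in the labels used here. H3K27ac and H3K4me1 were available for all 5 of these cell groups, PU.1 for all but granulocytes, and CEBPA for wild type preGM. Each value is a single number per enhancer and group, which the authors made from the group's libraries. The spread between libraries is therefore unknown and no difference between groups below carries a test. In sorted cells, signal in fewer cells and less signal per cell cannot be told apart. No value used here checks the deletion itself.

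PU.1, encoded by Spi1, is an ETS-family transcription factor that binds purine-rich sites with a GGAA core and is needed for myeloid and lymphoid development. CEBPA is a basic leucine zipper factor required for the passage of progenitors to the GMP stage, and it often binds near PU.1 at myeloid enhancers. H3K4me1 marks enhancers whether or not they are active, and H3K27ac marks active enhancers and promoters.

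The enhancers were short, with a median width of 226 bp (7 to 967 bp), against 194 bp over all enhancers. They lay on 20 chromosomes. Of the 2786 genes, 2059 had 1 such enhancer and 727 had more. 547 of the 3871 enhancers lay within 1000 bp of another one, so that some neighbours share part of their signal. The sequence under the enhancers is not given, as the table uses build mm9. The promoters of 4 genes whose enhancers are described at length below are shown instead, as the bases just upstream of the RefSeq start (GRCm38), with the PU.1-type motif GAGGAAG, searched on both strands, in capitals. These are not the enhancers themselves, and no signal was measured over them here.
Mpo promoter, chr11:87793534-87793783, plus strand: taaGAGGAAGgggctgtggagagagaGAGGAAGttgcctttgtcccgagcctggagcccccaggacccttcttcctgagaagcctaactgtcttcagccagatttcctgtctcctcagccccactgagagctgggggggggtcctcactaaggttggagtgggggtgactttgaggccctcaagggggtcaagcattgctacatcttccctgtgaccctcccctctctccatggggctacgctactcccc
Prtn3 promoter, chr10:79879417-79879666, plus strand: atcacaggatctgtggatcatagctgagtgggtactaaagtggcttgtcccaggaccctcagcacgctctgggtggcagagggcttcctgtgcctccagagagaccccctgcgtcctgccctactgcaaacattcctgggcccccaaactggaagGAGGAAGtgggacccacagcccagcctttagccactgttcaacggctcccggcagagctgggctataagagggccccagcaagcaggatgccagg
Csf2ra promoter, chr19:61228419-61228668, minus strand: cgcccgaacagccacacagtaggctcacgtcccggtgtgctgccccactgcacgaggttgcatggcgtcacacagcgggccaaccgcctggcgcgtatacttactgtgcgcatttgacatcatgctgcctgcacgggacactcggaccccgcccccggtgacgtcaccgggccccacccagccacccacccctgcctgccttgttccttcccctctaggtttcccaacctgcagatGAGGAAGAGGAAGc
Ly86 promoter, chr13:37345095-37345344, plus strand: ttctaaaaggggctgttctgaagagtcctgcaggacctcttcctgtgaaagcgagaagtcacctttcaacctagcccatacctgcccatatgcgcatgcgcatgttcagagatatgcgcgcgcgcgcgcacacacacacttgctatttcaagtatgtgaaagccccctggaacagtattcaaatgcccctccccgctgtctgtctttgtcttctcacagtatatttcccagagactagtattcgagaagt
The Mpo and Csf2ra stretches hold 2 copies of the motif each, which overlap in Csf2ra, the Prtn3 stretch holds 1 and the Ly86 stretch holds none. The motif occurs in 12.0% of the 27025 promoters of this length in the reference table. A match says only that these letters are present, and its absence only that they are not in this window.

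The stage label was checked against the signal. The authors' separate flags for each stage marked 1403 of the enhancers in preGM alone, 1174 in preGM and GMP, and 1294 in GMP alone, with none flagged in LSK or granulocytes. The class "preGM,GMP" thus includes enhancers flagged in preGM alone. The authors' criterion for a flag is not stated in those sources. H3K4me1 in LSK was at least as high as in preGM at 2596 of the 3871 (67.1%), against 62.5% of all enhancers. PU.1 in LSK was at least the median of all enhancers in LSK at 3720 (96.1%). The H3K4me1 share was near that of all enhancers and the PU.1 share is over enhancers chosen for PU.1, so these shares do not date the signal, and the class is used below only as a name for the rule.

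The PU.1 label was checked in the same way. In GMP, none of the unbound or CEBPA-only enhancers of the same stages reached a PU.1 signal of 3. Among the PU.1-only enhancers, 2762 (71.4%) were at 3 or above and 1109 (28.6%) were below it. The value of 3 was noticed after the data were seen. The 2 lowest were at Tnfaip8 (0.41) and Rai1 (0.50), well inside the range of unbound enhancers, whose 95th percentile was 2.21. The sources used here do not say what put the 1109 in the PU.1 class. CEBPA signal in wild type preGM had a median of 0.49 and a highest value of 2.15, against medians of 0.99 at enhancers of the same stages with PU.1 and CEBPA (1544), 0.90 at those with CEBPA only (2182) and 0.46 at unbound ones (12753). The PU.1-only median was near that of unbound enhancers. Members and these other classes were set apart by CEBPA binding, so this level is a property of the choice and not a result.

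PU.1 was highest in preGM. Over the PU.1-only enhancers, the median signal was 3.0 in LSK, 4.88 in preGM, 4.02 in GMP and 3.03 in CEBPA KO preGM. The medians over all enhancers were 0.99, 1.34, 1.25 and 1.06. PU.1 was highest in preGM at 2881 of the 3871 (74.4%), against 49.9% of all enhancers. After each column was divided by its median over all enhancers the number was 1994 (51.5%), against 30.9%. The distribution in KO preGM lay close to that in LSK. The choice favours enhancers with PU.1 in preGM or GMP, so nothing is read from the shares highest in preGM. At PU.1-only enhancers of other stage classes the median was also highest in preGM. It was 5.59 where LSK was included and 4.89 where granulocytes but not LSK were included.

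**Figure D1:**
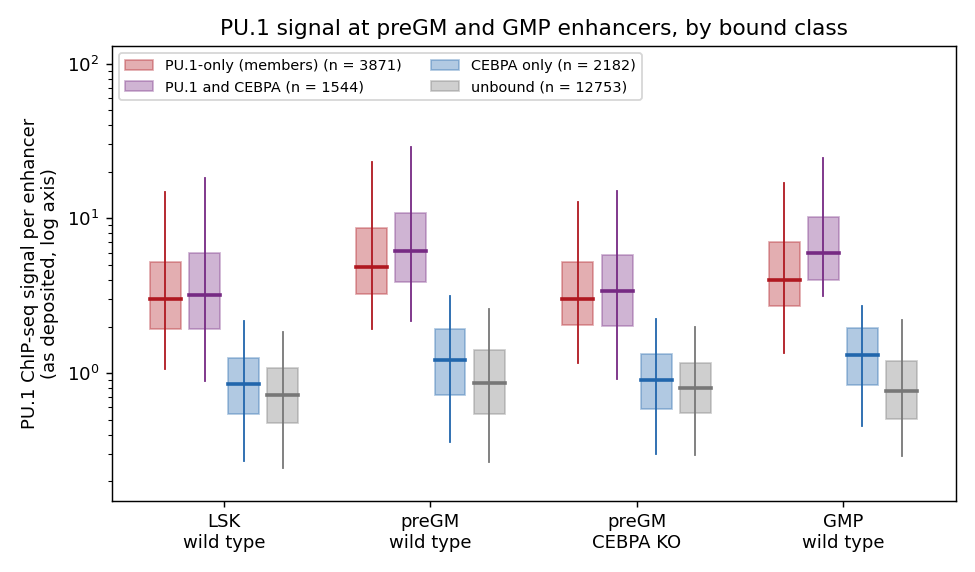
PU.1 ChIP-seq signal per enhancer (log axis) in LSK, wild type preGM, CEBPA KO preGM and GMP, for enhancers of the preGM and GMP stage classes grouped by bound factor. Thick lines are medians, boxes span the quartiles and thin lines the 5th to 95th percentiles over enhancers. The PU.1-only median is 3.0 in LSK, 4.88 in wild type preGM, 3.03 in KO preGM and 4.02 in GMP.

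Differences between groups are given as log2 ratios with a small constant added to both signals and with the median over all enhancers set to 0, so that a value is relative to the other enhancers. An enhancer was counted as different when the ratio was at least 2-fold. From LSK to preGM, PU.1 had a median log2 ratio of 0.29, and 214 of the 3871 enhancers (5.5%) were at least 2-fold higher and 2 were lower. Over all enhancers 2.20% were higher and 0.600% lower. The choice of PU.1-bound enhancers favours those high in preGM or GMP, and nothing is read from this excess. The enhancers with the highest ratios were at Kif23, a mitotic kinesin, with 2.25 in LSK and 14.5 in preGM, at 5830403L16Rik (0.93 and 6.61), and at 2 neighbouring positions near Mavs, the adaptor of RIG-I-like receptors (2.23 and 12.1, and 2.11 and 11.7). The 2 that were lower were at Ints8 (5.26 and 2.83) and Mn1 (4.46 and 2.40), neither of them with a constant 4 times larger. The first 4 thus lay below the PU.1-only median in LSK (3.0) and above that in preGM (4.88). Those at Kif23 and Mavs were nonetheless above the upper quartile of all enhancers in LSK (1.98).

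From preGM to GMP, PU.1 had a median log2 ratio of -0.21. At least 2-fold lower were 103 enhancers (2.7%) and 7 were higher, against 0.536% lower and 1.00% higher over all enhancers. By the stage flags, the median was -0.34 at enhancers flagged in preGM alone, -0.21 at those flagged in both and -0.10 at those flagged in GMP alone, and 78 of the 103 lower enhancers were of the first kind. The flags belong to the classification that chose the enhancers and were made from the same cells, so nothing is read from this order. The enhancers with the lowest ratios were at Gtf3c5 (6.01 in preGM and 1.08 in GMP), Clnk, an immunoreceptor adaptor (7.02 and 1.46), Capn3 (5.74 and 1.34) and Spice1 (5.92 and 1.43). At Itgb7, an integrin chain of lymphoid and mast cells, PU.1 was 30.3 in preGM and 13.9 in GMP, and at Itga2b, an early megakaryocyte integrin, it was 21.2 and 9.18. In the other direction stood Prtn3, the granule protease proteinase 3 (2.19 in preGM and 4.73 in GMP), and Pqlc1 (2.90 and 6.49), neither of which was 2-fold higher with a constant 4 times larger. The PU.1-only enhancers of other stage classes had medians of -0.18 where LSK was included and -0.04 where granulocytes but not LSK were included. Enhancers of the same stages with PU.1 and CEBPA had a median of 0.03.

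In CEBPA KO preGM, PU.1 was lower than in wild type preGM at 3688 of the 3871 enhancers (95.3%) as deposited, against 71.7% of all enhancers. Relative to all enhancers the median log2 ratio was -0.35. At least 2-fold lower were 175 (4.5%) and none was higher, against 1.99% and 0.725% over all enhancers. The enhancers were chosen for PU.1, and wild type preGM is one of the stages of the choice, so nothing is read from these shares. This comparison shares the wild type preGM column with that of LSK and preGM. Set directly against LSK, which leaves that column out, PU.1 in KO preGM had a median log2 ratio of -0.04 as deposited, against 0.02 over all enhancers. PU.1 in KO preGM was therefore near its level in LSK, at the median, in PU.1-only enhancers as in all enhancers.

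The KO ratio was more negative in the higher deciles of PU.1, and in decile 8 its median was negative in every class. The constant added to both signals shrinks ratios at low signal, and its part in this trend was not tested. When all enhancers were ranked by PU.1 in GMP, a column that enters neither side of the ratio, the PU.1-only enhancers had median log2 ratios of -0.25, -0.37 and -0.55 in deciles 8, 9 and 10 (858, 1215 and 1047 enhancers). Enhancers of the same stages with PU.1 and CEBPA had -0.31, -0.44 and -0.66 (236, 591 and 709). In decile 8, CEBPA-only enhancers had -0.26 (301) and unbound ones -0.22 (507), and neither class had an enhancer in deciles 9 and 10. Decile 8 ran from 2.33 to 3.56 in PU.1, and all CEBPA-only and unbound enhancers lay below 3. Of the whole class with PU.1 and CEBPA, 99.4% lay at 3 or above. The medians in decile 8 are thus not at equal PU.1. In decile 1, CEBPA-only enhancers had 0.28 (95) and unbound ones 0.34 (2134). The quartiles of the classes present overlapped in each of deciles 8, 9 and 10. Over all deciles the medians were -0.35 for PU.1-only, -0.53 for PU.1 and CEBPA, 0.00 for CEBPA only and 0.18 for unbound enhancers. At the 538 genes that had both a PU.1-only enhancer and one with PU.1 and CEBPA of the same stages, the medians were -0.36 (898 enhancers) and -0.55 (720), and the ratio was lower at the latter in 347 of the 538. Whether the share of CEBPA binding or the level of PU.1 sets this difference was not tested.

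**Figure D2:**
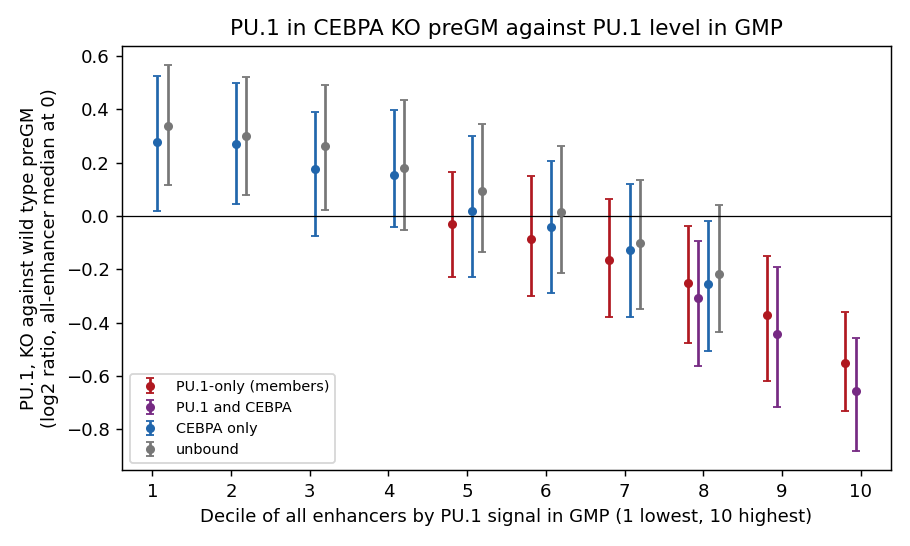
Log2 ratio of PU.1 signal in CEBPA KO to wild type preGM (median over all enhancers at 0) by decile of all 44002 enhancers ranked on PU.1 signal in GMP, for the enhancers of the preGM and GMP stage classes. Points are medians and bars the quartiles over enhancers, drawn where a class had at least 50 enhancers in a decile. The PU.1-only medians pass from -0.25 in decile 8 to -0.55 in decile 10. Other classes lie close to them in the deciles where both are drawn, and no CEBPA-only or unbound enhancers fall in deciles 9 and 10. Within decile 8 the classes differ in PU.1 level.

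Among single enhancers with PU.1 at least 2-fold lower in the KO, the lowest ratios were at Ctdp1 (7.20 in wild type and 0.71 in KO preGM), Capzb, an actin capping protein subunit (12.2 and 1.62), Dnase1l3 (5.50 and 0.63) and Dazl (5.81 and 0.84). The same direction was seen at Fes, a myeloid tyrosine kinase (22.0 and 7.42, log2 ratio -1.23), E2f1, a cell cycle transcription factor (45.8 and 15.7, -1.24), and Tatdn1 (58.1 and 21.0, -1.17). It was also seen at a PU.1-only enhancer of Cebpa itself (19.2 and 7.43, -1.04) and at one of Csf1r, the receptor for M-CSF (17.8 and 6.92, -1.02). PU.1 in LSK at these 9 was 3.17, 3.35, 1.18, 1.87, 8.63, 24.1, 44.9, 10.7 and 5.85 in the order named. It was lower in the KO than in LSK at all of them but Csf1r. These 9 were picked for lower PU.1 in the KO, which favours low KO values, so nothing is read from this. Over all PU.1-only enhancers, KO preGM against LSK had a median log2 ratio of -0.04 as deposited. At Itgal, a leukocyte integrin chain, PU.1 was higher in the KO (8.37 and 9.11).

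The strongest PU.1 signals were at enhancers that were already strong in LSK. The highest in GMP was at 9830001H06Rik, with 67.8 in LSK, 113 in preGM, 102 in GMP and 57.5 in KO preGM. E2f1 had 24.1, 45.8, 52.8 and 15.7, and Tatdn1 had 44.9, 58.1, 51.8 and 21.0. Rnf220, Ly86 and Axl followed, with 51.0, 47.3 and 44.8 in GMP. Their H3K27ac in GMP ranged from 0.37 at Axl, a receptor tyrosine kinase, to 11.6 at E2f1, against a median of 1.43 over the PU.1-only enhancers. Strong PU.1 thus stood beside both low and high H3K27ac. Over the 3871 enhancers the rank correlation of PU.1 with H3K27ac in GMP was 0.19, and that of PU.1 with H3K4me1 was 0.19. These enhancers share libraries and many share a gene, and so weak a relation is no finding.

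H3K27ac at the PU.1-only enhancers lay somewhat above that of all enhancers at the median, except in granulocytes. Its median was 1.07 in LSK, 1.13 in preGM, 1.43 in GMP, 1.13 in granulocytes and 1.14 in KO preGM, and the medians over all enhancers were 0.94, 0.91, 1.2, 1.48 and 0.92. It was highest in GMP at 1518 of the 3871 enhancers as deposited (39.2%, against 30.8% of all) and in granulocytes at 1243 (32.1%, against 48.3%). The members were chosen by stage, with none flagged in granulocytes, so nothing is read from these levels and shares. From LSK to preGM the median log2 ratio was 0.07, with 23 enhancers at least 2-fold higher (0.59%) and 18 lower (0.46%), against 0.561% and 0.457% over all enhancers. From preGM to GMP the median was -0.00, with 95 higher (2.5%) and 84 lower (2.2%), against 2.77% and 2.13%. Both steps thus matched the background of all enhancers.

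**Figure D3:**
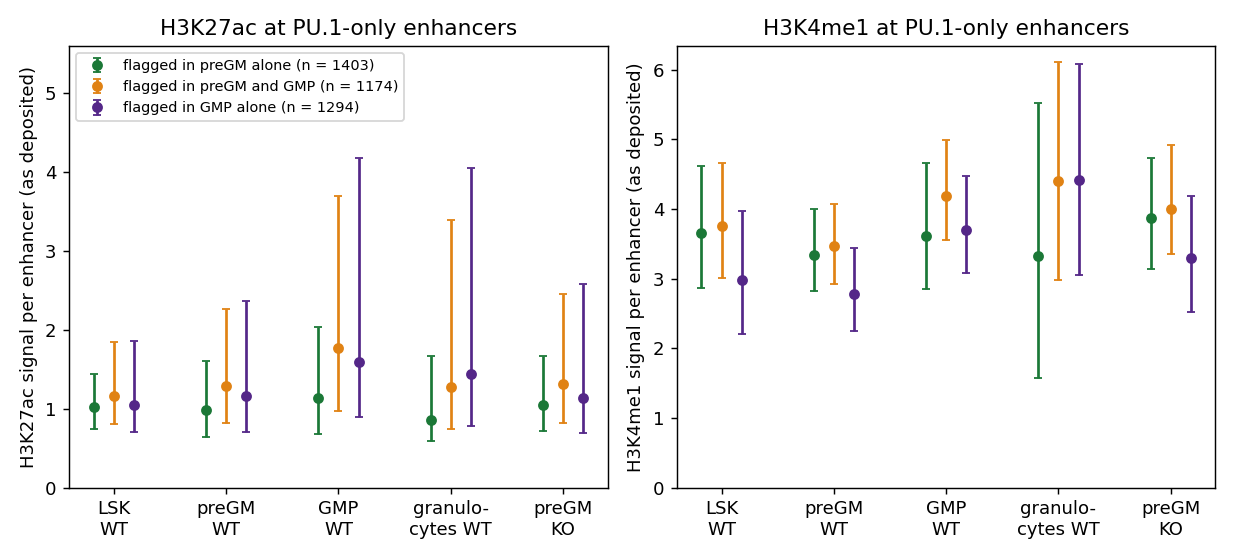
H3K27ac (left) and H3K4me1 (right) signal at the PU.1-only enhancers in 4 wild type (WT) stages and in CEBPA KO preGM, by the authors' stage flags. Points are medians and bars the quartiles over enhancers. In GMP the H3K27ac medians are 1.14 (flagged in preGM alone), 1.78 (in preGM and GMP) and 1.59 (in GMP alone), and in granulocytes the H3K4me1 medians are 3.33, 4.4 and 4.41.

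The highest ratios from LSK to preGM were at Cux1, a homeodomain factor (H3K27ac 1.08 in LSK and 4.17 in preGM), Nin, a centrosome protein (1.31 and 4.38), Spred3, an inhibitor of Ras-ERK signalling (2.38 and 7.10), and Lipe, the hormone-sensitive lipase (0.71 and 2.70), and the lowest at Sost, Kcnk13, Ston1 and 1700007I08Rik. With a constant 4 times larger, none of these 8 remained 2-fold different. From preGM to GMP the highest were at Mpo, Snx5, Tex2 and Sdf2l1. At Mpo, which encodes the myeloperoxidase of primary granules (chr11:87613582-87613863 in mm9), H3K27ac was 1.75 in LSK, 2.28 in preGM, 16.8 in GMP, 0.70 in granulocytes and 1.02 in KO preGM. Snx5, a sorting nexin, had 1.42 in preGM and 11.7 in GMP, and Sdf2l1, an endoplasmic reticulum chaperone component, had 1.87 and 11.2. H3K27ac at the Mpo enhancer was highest in GMP. In LSK and preGM it was above the upper quartiles of the PU.1-only enhancers (1.67 and 1.93). PU.1 at the Mpo enhancer was only 1.23 in LSK, 2.32 in preGM, 3.62 in GMP and 2.23 in KO preGM.

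The lowest ratio from preGM to GMP was at Flt3, the cytokine receptor of multipotent and dendritic progenitors (chr5:148211887-148211998 in mm9). H3K27ac there was 7.58 in LSK, 10.8 in preGM, 2.46 in GMP, 0.50 in granulocytes and 4.27 in KO preGM, while PU.1 was 7.40, 9.65, 8.17 and 6.87 in LSK, preGM, GMP and KO preGM. H3K27ac at this enhancer thus differed between preGM and GMP by a log2 ratio of -2.15 while PU.1 differed by -0.15. Snx29, B3galt5 and Enpp6 followed, with H3K27ac of 2.93, 2.60 and 1.72 in preGM and 0.80, 0.66 and 0.29 in GMP. With the larger constant these 3 were no longer 2-fold lower, while Flt3 was.

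From GMP to granulocytes, H3K27ac at the PU.1-only enhancers had a median log2 ratio of -0.23. At least 2-fold lower were 479 (12.4%) and 151 were higher (3.9%), against 8.24% lower and 10.8% higher over all enhancers. No enhancer of this stage class was flagged in granulocytes, so the choice of members bears on this contrast and nothing is read from it. At PU.1-only enhancers whose class includes granulocytes but not LSK, 15.6% were higher and 7.8% lower. At unbound enhancers of the members' own stages, 2.9% were higher and 9.1% lower, and at those with PU.1 and CEBPA 7.8% were higher and 11% lower.

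**Figure D4:**
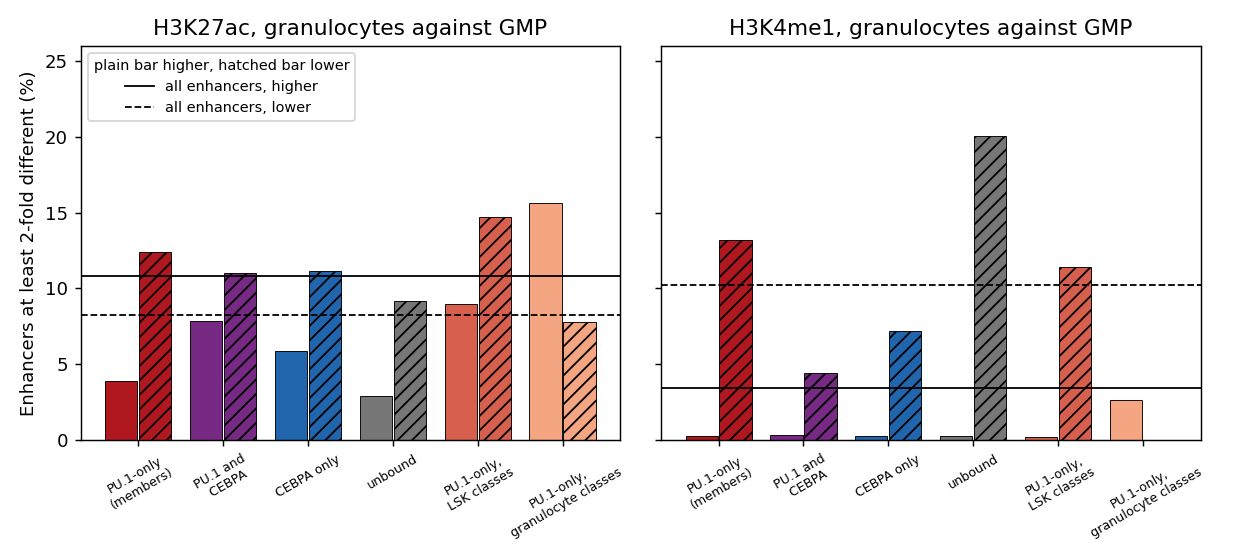
Share of enhancers with H3K27ac (left) or H3K4me1 (right) at least 2-fold higher (plain bars) or lower (hatched bars) in granulocytes than in GMP. The first 4 pairs of bars are enhancers of the preGM and GMP stage classes by bound factor, the last 2 are PU.1-only enhancers of other stage classes, and lines give the share over all 44002 enhancers. Of the PU.1-only enhancers described here, 3.9% are higher and 12.4% lower in H3K27ac, and 0.2% and 13.2% in H3K4me1.

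The lowest H3K27ac ratios from GMP to granulocytes were at Mpo and at 3 enhancers of metabolic genes. Fasn, the fatty acid synthase, had 5.10 in LSK, 8.99 in preGM, 17.0 in GMP and 1.3 in granulocytes. Pank1, a pantothenate kinase of coenzyme A synthesis, had 5.63, 11.7, 16.3 and 1.08. Gsto1, a glutathione transferase, had 2.10, 6.02, 12.6 and 1.36. H3K4me1 at these 3 was higher in granulocytes than in GMP, at 16.1 against 4.25, 14.3 against 4.11 and 13.1 against 6.22. The 2 marks thus differed in opposite directions there. Of the 479 enhancers with H3K27ac at least 2-fold lower, 268 (55.9%) had a higher deposited H3K4me1 signal in granulocytes than in GMP. The number was 106 (70.2%) of the 151 with H3K27ac at least 2-fold higher. The deposited H3K4me1 ratio had a median of 0.08 over the PU.1-only enhancers and 0.32 over all, so nothing is read from these counts. Of the 479, 78 were also at least 2-fold lower in H3K4me1, against 13.2% of the PU.1-only enhancers and 10.2% of all. The rank correlation of the 2 ratios over the 3871 was 0.15.

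The highest ratios from GMP to granulocytes were at Zdhhc7 (0.59 in GMP and 10.2 in granulocytes), a palmitoyltransferase, at 2 neighbouring enhancers of Fmnl1, a formin of leukocytes (2.74 and 23.1, and 2.58 and 19.6), and at Ttc7 (0.74 and 6.96). At Csf2ra, which encodes the GM-CSF receptor alpha chain (chr19:61303733-61303799 in mm9), H3K27ac was 5.56 in LSK, 8.55 in preGM, 15.6 in GMP, 55.8 in granulocytes and 11.2 in KO preGM. PU.1 there was 7.70, 15.6, 22.1 and 7.78 in LSK, preGM, GMP and KO preGM. H3K4me1 at Csf2ra was lower in granulocytes (2.84) than in GMP (5.61). At Fmnl1 it was also lower, at 2.09 against 7.62 and 1.68 against 7.43. H3K27ac at all of these enhancers was higher in granulocytes, for which they were not flagged, than in GMP. Those at Zdhhc7, Fmnl1 and Ttc7 were named for this ratio, so nothing is read from it. Of the PU.1-only enhancers 3.9% were at least 2-fold higher in granulocytes, against 10.8% of all.

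**Figure D5:**
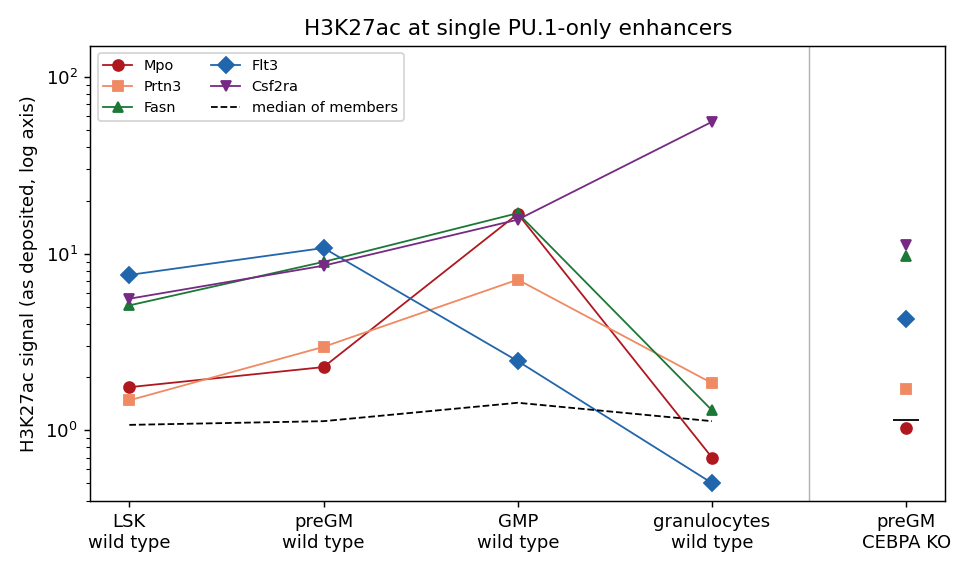
H3K27ac signal (log axis) at 5 single PU.1-only enhancers in LSK, preGM, GMP and granulocytes of wild type, joined by lines, and in CEBPA KO preGM, set apart at the right. The broken line and the short bar give the median of the 3871 enhancers. Mpo, Prtn3 and Fasn are highest in GMP, Flt3 in preGM and Csf2ra in granulocytes.

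H3K4me1 varied little up to GMP. Its median was 3.47 in LSK, 3.21 in preGM, 3.83 in GMP, 4.08 in granulocytes and 3.76 in KO preGM. The median log2 ratio was -0.01 from LSK to preGM, -0.03 from preGM to GMP and 0.04 in the KO. From GMP to granulocytes it was -0.24, with 13.2% of the enhancers at least 2-fold lower and 0.2% higher, against 10.2% and 3.43% over all enhancers. The choice of members bears on this contrast too. As deposited the sign is the other way, with a median log2 ratio of 0.08 before the all-enhancer median is subtracted. By the flags, which again bear on this contrast, the share that was lower was 20.9% for enhancers flagged in preGM alone, 10.8% for those flagged in both and 7.0% for those flagged in GMP alone. The 6 enhancers with the highest H3K27ac in GMP, at Spag9, Tm9sf3, Wdr45l, Klf7 (2 neighbours) and Rae1, had H3K27ac of 31.2 to 37.3. Their H3K4me1 in GMP was 2.25 to 3.04, below the median of the PU.1-only enhancers in each case. Their distance to a gene's start is not given here.

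H3K27ac at these enhancers in CEBPA KO preGM was close to the wild type level. It was lower in KO than in wild type preGM at 1668 of the 3871 (43.1%), against 45.2% of all enhancers, and the median log2 ratio was 0.03. At least 2-fold higher were 15 (0.39%) and lower were 17 (0.44%), against 0.323% and 0.657% over all enhancers. At enhancers of the same stages with PU.1 and CEBPA the median was -0.04. In decile 10, where PU.1 had a median log2 ratio of -0.55 in the KO, H3K27ac had 0.01. The rank correlation of the 2 KO ratios over the 3871 enhancers was 0.09, and the 2 ratios come from separate ChIP libraries of the same cell groups.

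Single enhancers with lower H3K27ac in the KO included Flt3 (10.8 in wild type and 4.27 in KO), Ctbp2, a transcriptional corepressor (4.38 and 1.65), Gramd4 (2.72 and 0.88) and Bcl9 (1.47 and 0.26). Those with higher H3K27ac were at Gnb2, a G protein subunit (0.57 and 2.43), Car2, a carbonic anhydrase abundant in erythroid cells (1.59 and 4.93), Whrn (0.52 and 2.28) and Mycn, a MYC family transcription factor (0.32 and 1.72). With a constant 4 times larger added to the signals, none of these 8 remained at least 2-fold different.

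Grouped by function, the PU.1-only enhancers made up a share of most gene lists near their 8.80% of all enhancers. The share was 8.76% for cell cycle genes, 8.21% for cytokine and growth factor receptors, 8.04% for myeloid transcription factors, 7.92% for stem and multipotent progenitor genes and 7.60% for kinase signalling genes. It was 0 of 134 enhancers at the 15 secondary granule and mature neutrophil genes in the table and 0 of 13 at the 3 erythroid genes. The lists were drawn up with earlier results of these data known. Because the members were chosen by stage and bound factor, these counts describe the choice, and they carry no test.

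Among the 14 monocyte and macrophage genes, 6 had a member, 15 members in all (13.5% of the list's 111 enhancers, against 8.80% over all). Of the 15, 9 were at the single locus of Ly86. PU.1 in the KO had a median log2 ratio of -0.51, and H3K27ac one of -0.02, with none 2-fold different. PU.1 was at least 2-fold lower at 2 of the 15, against 4.5% of the PU.1-only enhancers and 1.99% of all. Examples were Csf1r, Ly86, Ms4a6c (PU.1 3.20 in LSK, 8.65 in preGM, 7.59 in GMP and 2.99 in KO preGM) and the fractalkine receptor gene Cx3cr1 (1.57, 4.24, 5.26 and 1.86). The median of -0.51 lay below that of all PU.1-only enhancers, which was -0.35. PU.1 in the KO was on the lower side at 14 of the 15, against 83.9% of the PU.1-only enhancers.

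Cytokine and growth factor receptor genes had 16 members at 9 of 16 genes. PU.1 was at least 2-fold higher in preGM than in LSK at 4 of the 16, against 5.5% of the PU.1-only enhancers and 2.20% of all. The median log2 ratio of the 16 was 0.58, against 0.29 for all PU.1-only enhancers. Tnfrsf1b, a TNF receptor, had PU.1 of 3.96 in LSK, 14.0 in preGM, 8.40 in GMP and 5.86 in KO preGM. Il17ra, an interleukin 17 receptor, had 2.41, 8.61, 8.19 and 6.20. H3K27ac from GMP to granulocytes was at least 2-fold higher at 3 of the 16, among them Csf2ra, and lower at 2, among them Flt3. Over the PU.1-only enhancers 3.9% were higher and 12.4% lower, and over all enhancers 10.8% and 8.24%. Counts this small carry no finding.

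Myeloid transcription factor genes had 18 members at 9 of 14 genes. At Cebpa (chr7:35936013-35936072 in mm9) PU.1 was 10.7 in LSK, 19.2 in preGM, 19.1 in GMP and 7.43 in KO preGM, and H3K27ac was 1.15, 1.47, 2.27, 1.95 and 1.17 in LSK, preGM, GMP, granulocytes and KO preGM. At Runx1, a factor of stem and myeloid cells, PU.1 was 5.82, 17.2, 10.6 and 12.6. At Irf8, the determinant of monocyte and dendritic fate, it was 7.53, 10.5, 10.3 and 6.69. These 3 enhancers had PU.1 in LSK, and H3K27ac at Irf8 stayed below 1 in every group. In the KO, 1 of the 18 was at least 2-fold lower in PU.1, against 4.5% of the PU.1-only enhancers and 1.99% of all.

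Innate immune sensor and adaptor genes had 9 members at 4 of 12 genes. PU.1 in the KO was on the lower side at all 9, against 83.9% of the PU.1-only enhancers. Of the 9, 5 were at the single gene Cd180. PU.1 was at least 2-fold lower at 2, against 4.5% of the PU.1-only enhancers and 1.99% of all. The median was -0.66, against -0.35 for all PU.1-only enhancers. The 9 were strong in PU.1, with a median of 9.80 in GMP, and the PU.1-only median in decile 10 was -0.55. Myd88, the Toll-like receptor adaptor, had PU.1 of 23.4, 40.2, 31.7 and 20.3 in LSK, preGM, GMP and KO preGM. Tlr9, a sensor of unmethylated DNA, had 15.0, 34.0, 23.4 and 18.3, and Cd180, a Toll-like receptor homologue, had 18.2, 27.5, 27.9 and 14.9. Kinase signalling genes had 20 members at 12 of 19 genes. PU.1 in the KO was on the lower side at 19 of the 20, which is near the 83.9% of the whole class. Lyn, a Src family kinase, had H3K27ac of 2.64 in LSK, 5.21 in preGM, 13.3 in GMP and 11.5 in granulocytes. Inpp5d, which encodes the phosphatase SHIP1, had 3.69, 5.61, 8.18 and 14.7.

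Stem and multipotent progenitor genes had 24 members at 11 of 18 genes. H3K27ac from GMP to granulocytes was at least 2-fold lower at 6 of the 24 and higher at none. Over the PU.1-only enhancers 12.4% were lower and 3.9% higher, and over all enhancers 8.24% and 10.8%. In the KO, H3K27ac was below the median of all enhancers at 19 of the 24, against 47.6% of the PU.1-only enhancers, with a median log2 ratio of -0.17. Meis1, a homeobox gene of stem cells, had PU.1 of 20.2 in LSK, 27.6 in preGM, 14.5 in GMP and 15.3 in KO preGM. Etv6 had 15.2, 20.8, 15.4 and 8.84. Cell cycle genes had 12 members at 5 of 13 genes. Primary granule genes had 2, Mpo and Prtn3. Both had their highest H3K27ac in GMP, and Prtn3 had 1.48 in LSK, 2.97 in preGM, 7.13 in GMP, 1.85 in granulocytes and 1.72 in KO preGM.

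The remaining lists were small. Phagocyte oxidase and Fc receptor genes had 4 members at 3 of 10 genes, with Ncf1 at a PU.1 signal of 17.0 in GMP. Integrin and adhesion genes had 11 members at 8 of 12 genes. Of the markers of other blood cells, megakaryocyte genes had 4 members among 21 enhancers (19.0%) and dendritic cell genes 6 among 37 (16.2%). Both shares were above the 13.5% of the monocyte and macrophage genes. Mast cell, basophil and eosinophil genes had 2 (11.8%), and B cell and T and NK cell genes 1 each (8.3% and 7.1%). At the megakaryocyte genes Vwf and Pf4, PU.1 was 17.0 and 12.9 in preGM and 9.06 and 6.75 in GMP. Enhancer signal at such genes does not count the cells of those types, and their part in the results was not tested.

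Ly86, which encodes the MD-1 partner of Cd180, had the most PU.1-only enhancers, 9 of its 43 enhancers, spread over 194 kb. PU.1 in preGM ranged from 2.59 to 73.9 with a median of 6.32, and in LSK from 1.16 to 49.2 with a median of 3.56. As deposited, PU.1 in preGM exceeded its LSK value at 9 of 9 (96.1% of the PU.1-only enhancers and 76.4% of all). It was lower in GMP than in preGM at 8 of 9 (77.1% and 57.9%) and lower in KO than in wild type preGM at 9 of 9. H3K27ac was lower in granulocytes than in GMP at 9 of 9, against 55.9% of the PU.1-only enhancers and 42.1% of all. The 9 share a locus, and 3 of them start within 2.17 kb, so they are not separate observations. Ccnd2, which encodes cyclin D2, and Nfkb1, an NF-kappa B subunit gene, followed with 7 each, and PU.1 was lower in the KO at 7 of 7 in both. Rreb1 and Snx29 also had 7 each, with 6 and 7 lower. Since 95.3% of all PU.1-only enhancers were lower in the KO as deposited, these counts match the class as a whole.

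Many genes with a PU.1-only enhancer were also paired with an enhancer of a CEBPA class. Of the 2786 genes, 1472 (52.8%) had an enhancer of any stage in a CEBPA class, against 43.9% of all 10096 genes. Genes with many enhancers are more likely to be in both counts, so nothing is read from the difference. Of the 1472, 982 genes had an enhancer with PU.1 and CEBPA and 1063 had one with CEBPA only.

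Median H3K27ac in GMP was lower where PU.1 in GMP was below 3, a cut noticed after the data were seen. The rank correlation of the 2 signals was weak (0.19), so no finding is drawn from the values below. The 1109 with PU.1 below 3 in GMP had a median H3K27ac of 1.05 and H3K4me1 of 3.48 in GMP, and the 2762 others had 1.65 and 3.98. Their PU.1 log2 ratio in the KO had a median of -0.15, against -0.44. When the 3871 were split into 10 equal groups by PU.1 in GMP, median H3K27ac in GMP was 0.89 in group 1, the weakest in PU.1, 1.09 in group 2, 1.42 in group 3 and 1.78 in group 4. From group 5 to group 10 it lay between 1.54 and 1.75. These medians thus differed along PU.1 in the 4 weakest groups and hardly above them.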

How the data were processed

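ChIP-seq values came from a deposited table of 44002 enhancers (mm9) with 1 signal value per enhancer and group. The labels list 77 samples. The 15 columns used match groups of 2 libraries each, and 17 further value columns were not used, among them 6 of expression, so the planned RNA comparison was not made and RNA is not analysed here. For ChIP-seq, Bowtie2, MACS2 and bedtools are named without versions (per the submitters' processing notes). The sources used here do not give how the authors pooled and scaled the libraries into this signal, nor how they set the stage flags and bound classes. Per the labels' protocols, E. coli DNA was added to the precipitated DNA before amplification. Depth is unknown, and values carry no counting interval. Coordinates are as in the table, with no stated counting base.

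Log2 ratios were computed from the deposited signal with a pseudocount (H3K27ac 0.7, H3K4me1 2, PU.1 0.6, the 25th percentile of the assay's values to 1 digit), less the median of all enhancers, in Python 3.11.15 with pandas 2.3.3 and numpy 2.4.6, and the steps were tested on simulated data. Enhancers at least 2-fold different were counted, with no test. Alternatives were a pseudocount 4 times smaller or larger, no subtraction of the median, and a filter at the 25th percentile of mean signal. The members and the 17 gene lists were chosen with earlier results of these data known. Enhancers named are, per H3K27ac or PU.1 comparison, the 4 highest and 4 lowest ratios among those at least 2-fold different whose signal in the higher group reached the members' median. The 6 highest in PU.1 and in H3K27ac in GMP, the genes with most members, at most 4 members per list by PU.1 in GMP, and the lowest in PU.1 are also named. An enhancer that this rule would name is not reported here.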

Additional observations from a re-analysis of the deposited data

How the results depend on the processing

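Counts of enhancers at least 2-fold different depended strongly on the constant added to the signals. With a constant 4 times smaller, H3K27ac counts (higher, lower) were 139 and 149 from LSK to preGM, 195 and 365 from preGM to GMP, 251 and 856 from GMP to granulocytes, and 116 and 132 in the KO. For PU.1, 8 were lower from LSK to preGM, 14 higher and 171 lower from preGM to GMP, and 1 higher in the KO. With a constant 4 times larger, the H3K27ac counts were 0 and 0, 22 and 1, 47 and 110, and 0 and 0. For PU.1, 89 were higher and 0 lower from LSK to preGM, 0 higher and 16 lower from preGM to GMP, and 71 lower in the KO, and the median H3K4me1 log2 ratio from GMP to granulocytes was -0.13. Without subtraction of the all-enhancer median, H3K27ac was lower at 9 from LSK to preGM, and higher at 353 and lower at 22 from preGM to GMP. PU.1 was then higher at 638 and lower at 0 from LSK to preGM, higher at 4 from preGM to GMP, and lower at 545 in the KO. The median H3K4me1 log2 ratios were then 0.18 from preGM to GMP, 0.084 from GMP to granulocytes and 0.14 in the KO. Among enhancers above the 25th percentile of mean signal, H3K27ac was lower at 7 from LSK to preGM and higher at 54 from preGM to GMP, and PU.1 was lower at 5 from LSK to preGM and at 97 in the KO. The other 20 of 56 recomputed counts were within 1.5 times the reported ones.

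The order against all enhancers also turned in places. From preGM to GMP, H3K27ac was higher at 2.45% of the PU.1-only enhancers against 2.77% of all as reported, and at 0.568% against 0.505% with the larger constant. No paired analysis was possible because the table holds 1 pooled value per group. Leaving out single libraries, a replicate block and RNA expression were not run for the same reason or because their columns were not used. Unknown depth and the missing spread between libraries limit every comparison.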
